A study of Rattus norvegicus with 23 samples.

Results

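Dividing cells of the CG4 line were set against dividing primary rat oligodendroglia. The comparison takes 7 of the 23 RNA-seq libraries of the series, chosen by their titles: all 3 of wild-type CG4 under proliferative conditions and all 4 of primary cells under proliferative conditions. CG4 is an immortalized line that came from oligodendroglia of the rat brain, so its 3 libraries describe 1 line. The primary cells grew in mixed glial cultures and were freed by shaking, a step that can carry other glia along. Neither group held a vector, and both were kept in basal medium with the mitogens bFGF and PDGF-AA. A second state serves below as a side value. It holds 4 libraries of CG4 with the GFP vector pCAG-IRES-EGFP (control) and 4 of primary cells, all after 3 days in SATO medium with high T3/T4 and CNTF. Counts of the other 8 libraries, CG4 with added Zfp488 or Nkx2.2, were not used. The question is in which genes the line differs from primary cells while both divide.

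Oligodendrocyte progenitors (OPCs) divide in response to PDGF-AA, which binds the receptor encoded by Pdgfra, and to FGF. They carry the NG2 proteoglycan, encoded by Cspg4, and the lineage factors Olig1, Olig2 and Sox10. When they leave the cell cycle they pass through a committed stage and then switch on the myelin genes. A line that has been kept dividing for long can differ from its source cells in growth control, in regional identity and in its readiness to differentiate.

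Total counts per library were 32454992 to 42318101 in proliferating CG4 and 20063345 to 33130502 in proliferating primary cells. The CG4 libraries were read as 2x100 bases and all others as 2x150 bases, so read length cannot be told apart from the group. Libraries of CG4 differed from each other far more than the primary ones, with a chi-square per degree of freedom of 151 to 262 against 2.14 to 4.45. The spread between CG4 libraries is thus the wider one. Levels are CPM, counts scaled to 1000000 per library on TMM-scaled library sizes. Differences are log2 fold changes, CG4 minus primary, ± SE, tested by the quasi-likelihood method of edgeR with Benjamini-Hochberg adjusted p, and "higher" or "lower" is used of genes with an adjusted p under 0.05. Titles name the libraries biological replicates, and the p-values measure only how these libraries vary. The SE and adjusted p treat the 4 primary libraries as separate, and whether they share a preparation was not tested.

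Before the test, 274 of 15219 genes were set aside because their mean CPM in proliferating CG4 lay over 8-fold outside the range of the other groups, with means under 1 CPM raised to 1 CPM. Of these, 178 lay above the range and 96 below it. They include genes that dividing cells of any kind are known to use. Gapdh (ENSRNOG00000018630), a glycolytic enzyme, stood at 0.213, 0.0616 and 0.248 CPM in the CG4 libraries, at 1395 to 1565 CPM in primary cells and at 2177 to 2731 CPM in differentiating control CG4. Tpi1, another enzyme of glycolysis, went the other way. It stood at 1090.0, 396 and 511 CPM in proliferating CG4, at 0.121 to 0.36 CPM in proliferating primary cells and at 0.700 to 1.14 CPM in control CG4. Gnas, the stimulatory G protein subunit, showed the same pattern, at 921, 1313 and 1249.5 CPM against 5.63 to 7.67 CPM. Genes above the range held 2.04% to 2.19% of the counts of each proliferating CG4 library and 0.044% to 0.0474% of each primary one. At the border, Maf (8.01-fold) was set aside and Pltp (7.99-fold) was kept. A difference in counting was named as possible when the rule was written. It was not tested here, neither in these genes nor in those that were kept. The rule also removes large differences by construction, among them the myelin genes Mog (0.496, 0.308 and 1.41 against 13.2 to 16.2 CPM) and Cldn11 (0.260, 0.0924 and 0.174 against 56.8 to 63.7 CPM). For these genes the levels are given with no test, as CPM on plain library totals. Set-aside genes are also left out of the list counts, medians and sums below. The OPC, growth factor, matrix, interferon, imprinted and axon guidance lists lost members in this way, besides the lists where it is stated.

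Of the 12373 genes tested, 8172 (66.0%) passed, 4085 (33.0%) higher and 4087 (33.0%) lower in CG4. A log2 difference of at least 1 was reached by 1849 (14.9%) of the genes in the higher direction and 2496 (20.2%) in the lower. At least 3 was reached by 270 (2.18%) and 1232 (9.96%). Shares of gene lists below are to be read against these, and against the median log2 difference of all genes tested, 0.00. Of the 1232 genes at least 3 lower, 493 have no symbol in the files and entered no list. In all, 736 tested genes have no symbol, of which 560 were lower and 88 higher. Symbols come from the authors' results on differentiating CG4, so the lists and largest differences below hold only genes named there. The shares above thus lean further toward lower than those of the 11637 genes with a symbol, whose median was 0.05.

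**Figure D1:**
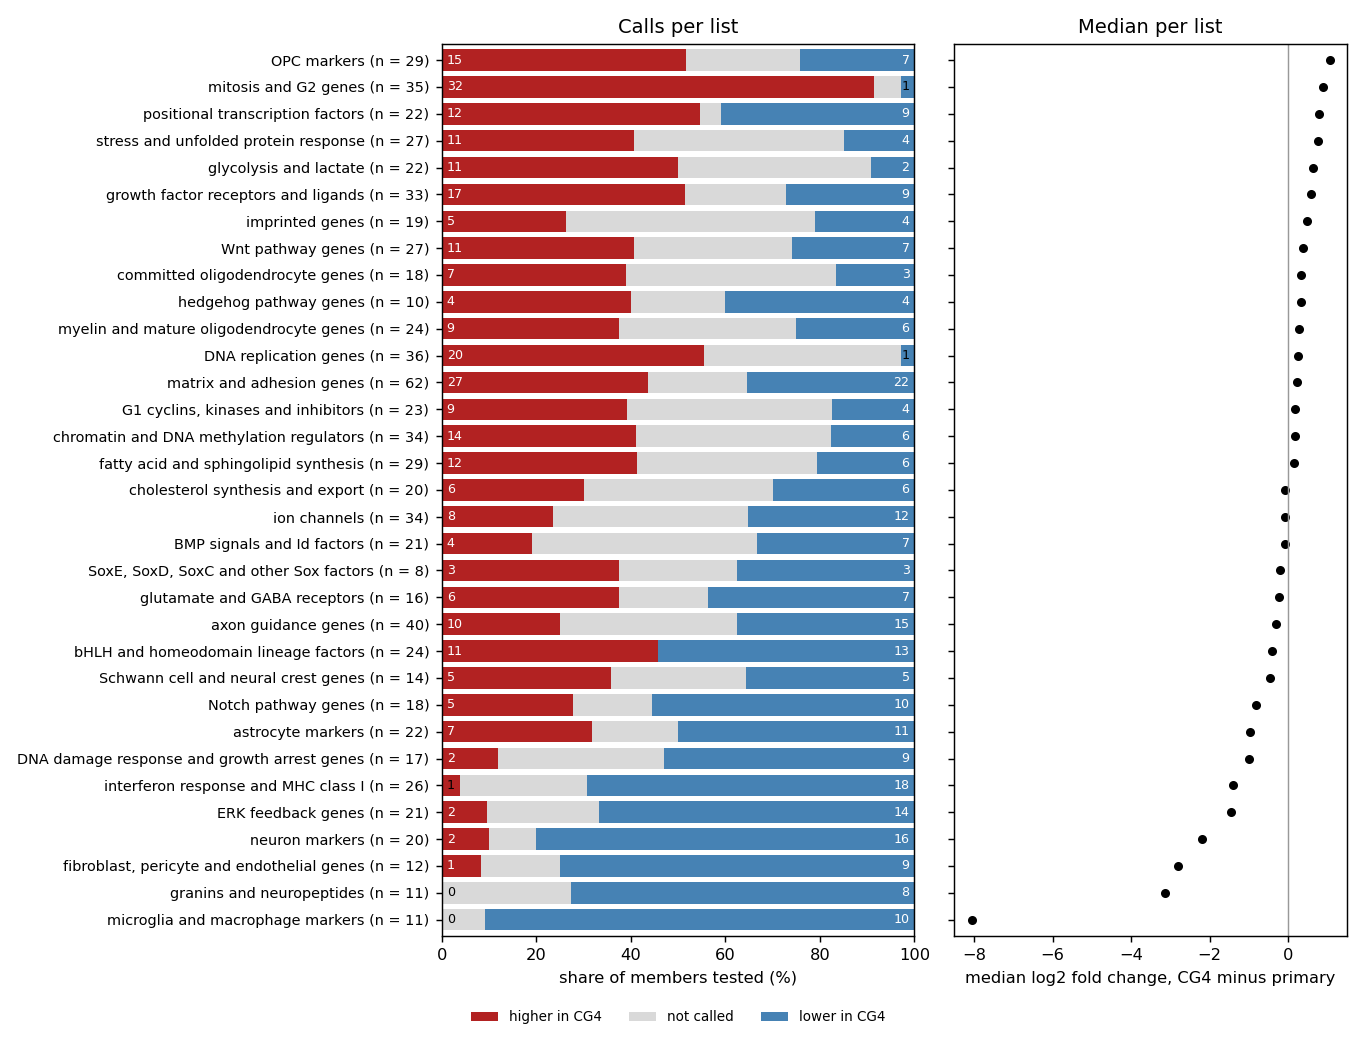
Left, for each gene list, the share of tested members (x axis, %) called higher in CG4 (red, count at the left), lower (blue, count at the right) or not called (grey) by edgeR. Right, the median log2 fold change of the list. Mitosis genes (32 of 35 higher) stand near the top and microglia markers (10 of 11 lower) at the bottom.

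Among genes with a symbol and a mean of at least 5 CPM in the higher group, the largest differences toward CG4 included matrix genes and transcription factors of patterning. Hapln1 (ENSRNOG00000032002), which links hyaluronan to proteoglycans, stood at 483, 583 and 411 CPM in the CG4 libraries and at 1.37, 1.78, 1.39 and 1.32 CPM in the primary ones (8.39 ± 0.18, adjusted p = 1.42e-07). The groups lie far apart, and no library comes near the other group. Ebf3, a transcription factor of early neural development, stood at 39.6, 34.1 and 38.6 against 0.190, 0.158, 0.149 and 0.240 CPM (7.6 ± 0.18, adjusted p = 1.6e-07). Sim2 showed the same clear gap, at 24.5, 14.1 and 21.4 against 0.114, 0.0791, 0.198 and 0.210 CPM (7.01 ± 0.35). A few transcription factor genes were close to silent in primary cells. Dmrt2 had 1 count over the 4 primary libraries and a level ratio of 780.1 (95% interval 140.0 to 30810.0), and Hmx3 had 1 count and a ratio of 581 (95% interval 104 to 22960.0). Hmx2, the neighbour of Hmx3 in the genome, stood at 5.92 to 14.4 against 0 to 0.120 CPM (7.6 ± 0.67). LOC103689922 had no count in primary cells and was at least 196-fold higher in CG4, taking 3 counts over the group as the floor. Cytl1, a secreted cytokine-like protein, had a ratio of 1297 (95% interval 444 to 6291), Cuzd1 a log2 difference of 7.19 ± 0.54, Zfp648 of 7.17 ± 0.91 and Susd5 of 6.83 ± 0.81.

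Among genes with a symbol, the largest differences toward primary cells included those of macrophage genes. Csf1r (ENSRNOG00000018414), the receptor on which microglia depend, stood at 0.0745, 0.0984 and 0.0255 CPM in CG4 and at 405, 392, 402 and 405 CPM in primary cells (-12.53 ± 0.20, adjusted p = 4.63e-08). Lyz2, a lysozyme of macrophages, C3, the central complement component, and Cybb, the phagocyte oxidase, showed the same gap, at 0.0248 to 0.306 against 841 to 858 CPM, 0.0328 to 0.179 against 424 to 451 CPM and 0 to 0.0656 against 162 to 178 CPM. Stab1, a scavenger receptor, had 2 counts over the CG4 libraries, with a ratio toward primary cells of 18930.0 (95% interval 5240.0 to 156300.0). Lgals3, a galectin of activated macrophages, had 1 count and a ratio of 5800.0 (95% interval 1041 to 229100.0). Other genes were among the largest as well. Rgs16, a regulator of G protein signalling, had a ratio of 5758 (95% interval 1594 to 47550.0) and Otud5, a deubiquitinase, one of 7537 (95% interval 2086 to 62230.0). Rasgrp3, Ch25h, Ugt1a7c and Slc18a2 had no count in any CG4 library and were at least 940.0-fold, 861-fold, 722-fold and 615-fold lower there.

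Markers of other cell types were read over whole lists, since fewer cells of a type and less RNA per cell cannot be told apart in bulk RNA. Of 26 microglia and macrophage markers 11 have a symbol in the files. Of these, 10 were lower in CG4 and 0 were higher by edgeR (0 also at an unadjusted p under 0.05 and 0 by DESeq2), with a median of -8.07. Their summed level was 46.1 to 96.8 CPM in CG4 and 1880.0 to 1910.0 CPM in primary cells. Fcer1g (0.306 to 0.472 against 109 to 112 CPM), Laptm5 (0 to 0.204 against 131 to 144 CPM) and Spp1 (0 to 0.224 against 80.4 to 83.0 CPM) were near 0 in CG4, and Cd68 (3.43 to 5.74 against 102 to 109.9 CPM) was low. P2ry12, a defining microglial receptor, stood at 1.86, 0.984 and 1.15 CPM in CG4 and 8.33 to 9.92 CPM in primary cells. Astrocyte genes split. Apoe (4.10 to 7.54 against 3664 to 4058 CPM), the gap junction gene Gja1 (0.0984 to 0.281 against 109.8 to 118 CPM) and Sox9 (0.546 to 5.15 against 117 to 130.4 CPM) were lower in CG4, as was the intermediate filament gene Vim (914 to 1772 against 4258 to 4470.2 CPM, -1.63 ± 0.21). S100b (149.5 to 279 against 20.8 to 24.0 CPM), Fabp7 (266 to 656 against 121 to 125 CPM) and Nes (482 to 827 against 112 to 119 CPM) were higher, and progenitors are known to express these as well. In all, 11 of 22 astrocyte genes were lower and 7 higher, with a median of -0.98. That median was -0.43 without primary replicate 1, -0.46 without replicate 2 and -0.42 without replicate 4, and -1.60 without CG4 replicate 1. The list summed to 2897 to 3943 CPM in CG4 and 8919 to 9582 CPM in primary cells. Apoe and Vim alone made up most of the primary sum, so the sums do not describe the list as a whole. The defining markers Gfap (0.224, 0 and 0.332 against 4.59 to 5.16 CPM) and Aldh1l1 (0 in each CG4 library against 0.248 to 0.723 CPM) were low in both groups.

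Neuronal genes were lower in 16 of 20 members and higher in 2, with a median of -2.20 and a sum of 1106 to 1630.0 CPM in CG4 and 3092 to 3174 CPM in primary cells. Dcx, the microtubule protein of migrating neuroblasts, stood at 0.596, 2.69 and 3.98 CPM in CG4 and 355, 381, 346 and 372 CPM in primary cells (-7.23 ± 0.59, adjusted p = 3.13e-05). Gad1, the GABA-synthesizing enzyme, stood at 0.621 to 2.55 against 50.04 to 59.8 CPM, and the growth cone gene Gap43 at 76.9 to 284 against 622 to 688 CPM. Syt1, a synaptic vesicle protein, went the other way (41.5 to 79.1 against 10.01 to 11.4 CPM, 2.45 ± 0.21), and so did Uchl1 (0.72 ± 0.11). Rbfox3, the NeuN gene, differed by -3.26 ± 1.18, and here 1 library matters: CG4 replicate 3 stood at 3.93 CPM, and without it the difference of Rbfox3 was -7.47. Its call also ended without any single primary library (adjusted p up to 0.0814). Fibroblast, pericyte and endothelial genes showed 9 of 12 members lower and 1 higher (2 without CG4 replicate 2), had a median of -2.82 and summed to 15.4 to 35.9 CPM in CG4 and 166 to 198 CPM in primary cells. Col1a1 (0.0328 to 0.638 against 36.8 to 47.0 CPM) and Fn1 (1.71 to 5.54 against 73.7 to 84.1 CPM) were lower. Col3a1 had 3 counts over the CG4 libraries and a ratio of 1289 (95% interval 441 to 6249). Vwf, the von Willebrand factor gene, was the 1 member higher in CG4, at 7.05 to 20.6 against 0.799 to 1.79 CPM (3.66 ± 0.45). Schwann cell and neural crest genes moved both ways, with 5 of 14 higher and 5 lower, or 3 lower without primary replicate 1 or 4. Their median was -0.45, but -0.83 without CG4 replicate 2 and nearer 0 without CG4 replicate 1 (-0.05) or 3 (-0.06). Cdh19 (5.11 to 20.9 against 0.298 to 0.751 CPM) and Prx (22.1 to 29.7 against 4.63 to 6.8 CPM), both known from Schwann cells, were higher. Of 29 defining markers, 10 were not found under a symbol and are not analysed here, among them Aif1, Cx3cr1 and Pdgfrb.

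**Figure D2:**
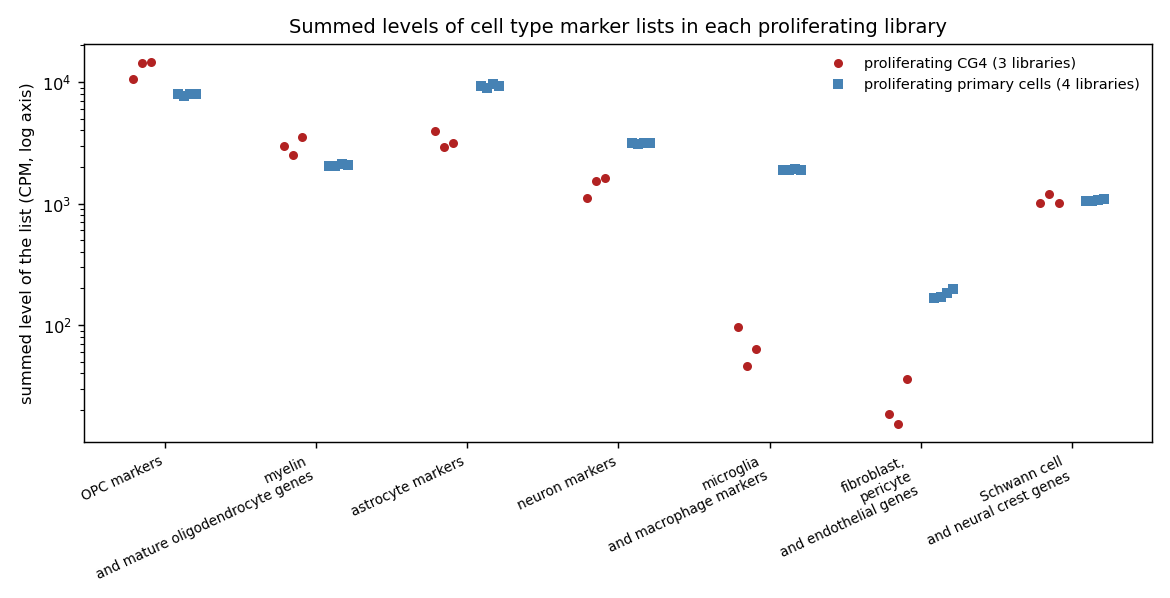
Summed level (y axis, CPM, log axis) of each cell type list in each library, proliferating CG4 as red circles and proliferating primary cells as blue squares. OPC markers sum higher in all 3 CG4 libraries, and microglia markers lie at 46.1 to 96.8 CPM in CG4 against 1880.0 to 1910.0 CPM in primary cells. Apoe and Vim make up most of the astrocyte sum in primary cells.

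Interferon response and MHC class I genes, which macrophages also express, went the same way as the macrophage list in dividing cells. They were lower in 18 of 26 members and higher in 1 (3 without CG4 replicate 2), with a median of -1.41. The class I genes RT1-A1 (0.0308 to 0.260 against 81.2 to 87.1 CPM) and RT1-A2 (0.123 to 0.378 against 79.7 to 85.2 CPM) were set aside. Their levels are on plain library totals. With set-aside genes kept, 20 of 28 were lower and 1 higher, with a median of -1.58. B2m, the invariant chain that MHC class I molecules share, stood at 110.3, 52.2 and 88.9 CPM in CG4 and 287, 297, 300.3 and 298 CPM in primary cells (-1.82 ± 0.23, adjusted p = 0.000321). Tap1, the peptide transporter, stood at 8.85 to 12.6 against 28.4 to 31.6 CPM, the antiviral gene Mx1 at 0.0328 to 0.281 against 10.7 to 12 CPM and the restriction factor gene Bst2 at 0 to 0.497 against 19.2 to 20.3 CPM. Irf7, the interferon regulatory factor, had no count in CG4 and was at least 142-fold lower. The part of macrophage transcripts in these values was not tested.

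Most OPC markers that passed were higher in CG4. Of 29 tested OPC markers 15 were higher and 7 lower, with a median of 1.05, and without primary replicate 3 the lower count was 4. Pdgfra (ENSRNOG00000002244) stood at 1141, 1611 and 2160.1 CPM in the CG4 libraries and at 609.7, 631, 633 and 642 CPM in the primary ones. Each CG4 library lies above each primary one (1.38 ± 0.19, adjusted p = 0.000465). Ptprz1, a receptor phosphatase of progenitors, stood at 2113, 1788 and 2455 against 916, 957, 894 and 959 CPM (1.19 ± 0.11, adjusted p = 6.27e-05). Sox6, which holds progenitors back from differentiating, showed a gap about as clean, at 754, 876 and 959 against 164, 170.5, 158 and 179 CPM (2.36 ± 0.10, adjusted p = 1.75e-06). Xylt1, which starts the sugar chains of proteoglycans (853 to 985 against 232 to 257 CPM), and the proteoglycan core genes Bcan (365 to 757 against 171 to 185 CPM) and Vcan (635 to 1267 against 306 to 334 CPM) were higher too.

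One defining OPC marker went sharply the other way. Cspg4 (ENSRNOG00000017208), the NG2 gene, stood at 2.66, 2.82 and 2.96 CPM in CG4 and at 112, 106, 109 and 109 CPM in primary cells (-5.28 ± 0.08, adjusted p = 4.63e-08). The CG4 libraries agree closely with one another, and all are far below the primary range. Dll3, a Notch ligand of progenitors, was also nearly lost, at 0.522 to 1.02 against 15.9 to 18.3 CPM (-4.57 ± 0.28). Cacng4, an AMPA receptor auxiliary subunit, was lower by less (43.5 to 104 against 144 to 155 CPM, -0.99 ± 0.26). Summed over the list, OPC markers reached 10670.0 to 14590.0 CPM in CG4 and 7651 to 7938 CPM in primary cells.

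**Figure D3:**
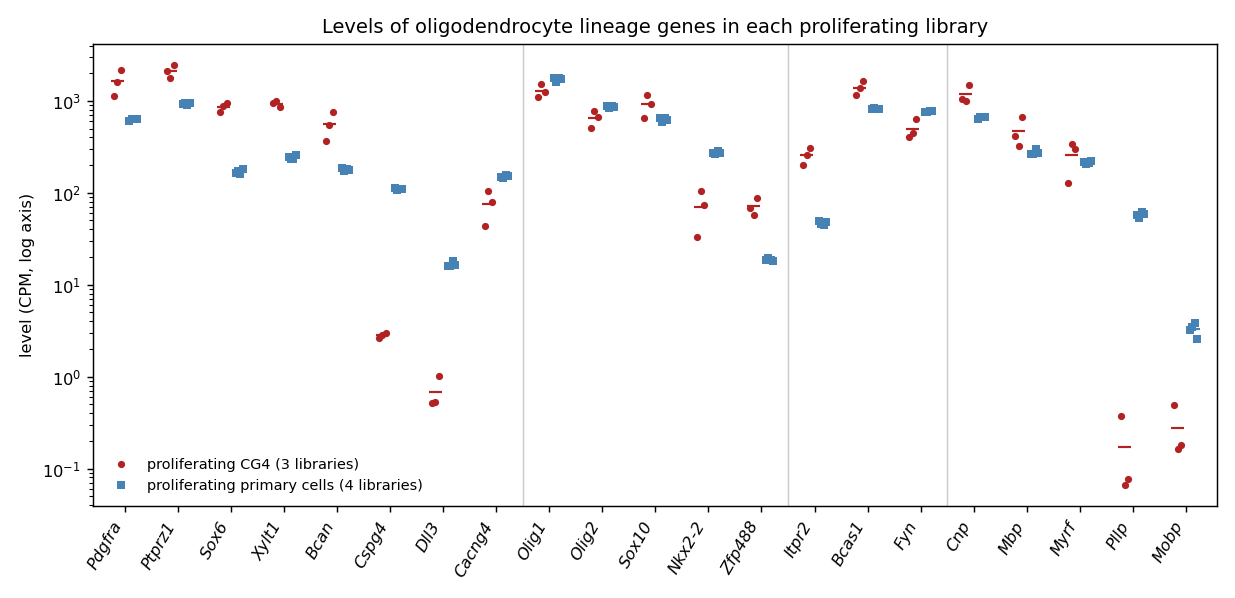
Level (y axis, CPM, log axis) of oligodendrocyte lineage genes in each library, proliferating CG4 as red circles and proliferating primary cells as blue squares, with short lines at the group means. Blocks from left to right are OPC markers, transcription factors, committed-stage genes and myelin genes. Pdgfra, Sox6 and Itpr2 lie higher in all CG4 libraries, and Cspg4, Dll3, Pllp and Mobp far lower.

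The core lineage factors differed by small amounts. Olig1 stood at 1092, 1539 and 1237 CPM in CG4 and 1763, 1604, 1782 and 1729.9 CPM in primary cells (-0.42 ± 0.12, adjusted p = 0.0182), and Olig2 at 501 to 781 against 832 to 884 CPM (-0.41 ± 0.14, adjusted p = 0.0346). Sox10 was slightly higher (657 to 1168 against 592 to 659 CPM, 0.54 ± 0.18, adjusted p = 0.0266), with CG4 replicate 1 inside the primary range. These calls are fragile. That of Olig1 ended without primary replicate 3 (adjusted p = 0.0501) or CG4 replicate 3 (0.0561), those of Olig2 and Sox10 without any single primary library (0.0534 to 0.0772). Without CG4 replicate 3 neither Olig2 (0.0679) nor Sox10 (0.0631) passed, and Sox10 also missed without CG4 replicate 2 (0.0577). The difference of Olig2 was -0.25 without CG4 replicate 1, and that of Sox10 was 0.33 without CG4 replicate 2.

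Nkx2-2 and Zfp488, the factors whose overexpression the series studies, differed in opposite directions. Nkx2-2 (ENSRNOG00000012728), a homeodomain factor, stood at 32.7, 104 and 74.2 CPM in CG4 and at 272, 262, 284 and 271 CPM in primary cells. All CG4 libraries are lower, though they vary among themselves (-1.95 ± 0.35, adjusted p = 0.00179). Zfp488 (ENSRNOG00000057542), a zinc finger regulator, stood at 68.6, 57.6 and 87.8 against 18.3, 19.6, 18.8 and 18.0 CPM (1.93 ± 0.14, adjusted p = 2.02e-05), and every CG4 library was above every primary one. All 24 tested members of the bHLH and homeodomain list passed, 11 higher and 13 lower, with a median of -0.41. Tcf12, a partner of the Olig factors (1.33 ± 0.10), the nuclear factors Nfia (1.17 ± 0.10) and Nfib (1.08 ± 0.07), and Zeb1 (0.69 ± 0.07) were higher. Pou3f3 (36.6 to 55.8 against 353 to 365 CPM, -3.01 ± 0.15) was lower. Of 8 Sox genes 3 were higher and 3 lower (median -0.21, or -0.14, -0.43 and -0.57 without CG4 replicate 1, 2 and 3). Sox5 (19.1 to 34.1 against 8.83 to 10.3 CPM, 1.33 ± 0.21), a relative of Sox6, was higher, and the stem cell factor Sox2 (229.9 to 253 against 619.6 to 666 CPM, -1.43 ± 0.07) and Sox11 (28.0 to 70.0 against 245 to 269.6 CPM, -2.52 ± 0.31) were lower.

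Regional identity genes moved both ways. Of 62 listed positional transcription factors 39 were not found under a symbol, so most of the list is not seen here. Of the 22 tested, 12 were higher and 9 lower (median 0.79). Dlx1 stood at 5.94, 3.02 and 1.10 CPM in CG4 and 168, 159.7, 164 and 157 CPM in primary cells (-5.59 ± 0.52, adjusted p = 6.5e-05). Dlx2 (1.02 to 2.16 against 57.7 to 68.9 CPM) and Sp9 (0.0255 to 0.164 against 51.8 to 61.9 CPM), which with Dlx1 act in the ventral forebrain and its interneurons, were lower as well, as were Six3 (0.102 to 0.248 against 7.70 to 9.37 CPM) of the anterior forebrain and Meis2 (24.8 to 37.7 against 215 to 227 CPM). The genes higher in CG4 included factors of the midbrain and of more posterior or dorsal regions. En1 stood at 6.83, 11.6 and 9.22 against 1.26, 0.909, 1.34 and 1.05 CPM (3.02 ± 0.25), En2 at 12.9 to 24.5 against 3.5 to 3.84 CPM (2.24 ± 0.23) and Irx2 at 15.8 to 26.6 against 1.34 to 2.01 CPM (3.54 ± 0.26). Zic2 (1.07 ± 0.12), Zic5 (2.64 ± 0.14) and Nkx6-1 (4.12 to 5.57 against 0.298 to 0.495 CPM, 3.74 ± 0.25) were also higher.

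Early signs of commitment were mixed, with a median of 0.34 (0.13 without CG4 replicate 3). Of 18 tested genes of committed oligodendrocytes 7 were higher and 3 lower, or 5 lower without CG4 replicate 2 and 7 without CG4 replicate 3. Itpr2, a calcium release channel that marks newly committed cells, stood at 199, 260.0 and 309.8 against 48.8, 46.3, 44.2 and 48.5 CPM (2.45 ± 0.14, adjusted p = 7.47e-06), with no overlap. Bcas1 (1147 to 1639 against 809 to 841 CPM, 0.76 ± 0.12) and Tcf7l2, an effector of Wnt signals at that stage (53.0 to 106 against 40.8 to 44.2 CPM, 0.93 ± 0.21), were higher. Lower were the kinase gene Fyn (403 to 643 against 748 to 768 CPM, -0.61 ± 0.16), Cnksr3 (3.87 to 15 against 25.7 to 27.6 CPM, -1.53 ± 0.40) and Enpp6 (0.164 to 2.15 against 6.75 to 7.67 CPM, -3.07 ± 0.85), the last at -5.35 without CG4 replicate 3.

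Myelin genes moved both ways, 9 of 24 higher and 6 lower (10 lower without CG4 replicate 3), with a median of 0.27 (0.11 without CG4 replicate 1). A further 3 members, all below the range, were set aside, and with them kept 9 were higher and 9 lower, with a median of -0.06. Mbp (ENSRNOG00000016516), myelin basic protein, stood at 419, 319 and 661 CPM in CG4 and at 265, 264, 296 and 269 CPM in primary cells (0.77 ± 0.22, adjusted p = 0.0165), and the difference was 0.44 without CG4 replicate 3. Cnp (999 to 1487 against 642 to 669 CPM, 0.84 ± 0.14), the lipid enzyme gene Ugt8 (153 to 191 against 91.6 to 105 CPM, 0.83 ± 0.09), Tspan2 (60.04 to 169 against 38.4 to 43.5 CPM), the lipocalin gene Apod (45.6 to 98.6 against 19.4 to 21.2 CPM) and the connexin gene Gjc3 (314, 53.9 and 47.1 against 2.10 to 2.53 CPM, 5.90 ± 0.77) were higher. Pllp, plasmolipin, was nearly lost, at 0.373, 0.0656 and 0.0766 against 57.2, 52.8, 61.5 and 58.1 CPM (-8.29 ± 0.43, adjusted p = 4.33e-06). Mobp (0.164 to 0.497 against 2.58 to 3.82 CPM), Aspa (0.0984 to 0.472 against 5.29 to 6.6 CPM) and Car2 (0.149 to 0.358 against 3.77 to 4.49 CPM) were lower too. Myrf, the myelin gene regulator, did not pass (0.25 ± 0.29, adjusted p = 0.463), but passed without CG4 replicate 1 (0.58, adjusted p = 0.000241).

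Genes of mitosis were higher in CG4 almost throughout. Of 35 tested members 32 were higher in CG4 and 1 lower, with a median of 0.88, and their sum was 7933 to 9143 CPM in CG4 and 4527 to 4656 CPM in primary cells. Cdc25b (ENSRNOG00000021248), a phosphatase that starts mitosis, stood at 109.7, 125 and 114 CPM in CG4 and 30.1, 29.2, 29.4 and 30.5 CPM in primary cells (1.96 ± 0.07, adjusted p = 8.9e-07). Ccnb1, the mitotic cyclin, stood at 336, 334 and 322 against 118, 128, 129.6 and 125 CPM (1.40 ± 0.06, adjusted p = 2.41e-06). Cenpa, the centromere histone, differed by a similar amount, at 110.1, 101 and 86.7 against 24.4, 24.5, 26.0 and 24.2 CPM (2.00 ± 0.09, adjusted p = 2.89e-06), and here the CG4 libraries agree well. The proliferation marker Mki67 (650.0 to 802 against 396 to 439 CPM, 0.77 ± 0.09), the topoisomerase gene Top2a (879 to 1105 against 487 to 527 CPM, 0.98 ± 0.09), the spindle genes Nusap1 (1.59 ± 0.09), Ndc80 (1.2 ± 0.07) and Tpx2 (1.01 ± 0.13), and the mitotic kinase gene Cdk1 (1.03 ± 0.06) were higher. Cdc25c was the 1 member lower (23.6 to 36.5 against 39.8 to 43.7 CPM, -0.58 ± 0.16), and it missed without CG4 replicate 3 (adjusted p = 0.0510).

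DNA replication genes differed less. Of 36 members 20 were higher and 1 lower, with a median of 0.26. Pola1, the polymerase that primes synthesis, stood at 162, 149.9 and 172 against 64.9, 75.5, 65.5 and 68.8 CPM (1.23 ± 0.08, adjusted p = 1.36e-05). Lig1 (1.30 ± 0.11), the nucleotide synthesis genes Tyms (1.48 ± 0.14) and Tk1 (0.90 ± 0.07), and the ribonucleotide reductase gene Rrm1 (0.55 ± 0.08) were higher. Gins2, a part of the replicative helicase, was the 1 member lower (16.9 to 20.5 against 60.4 to 63.1 CPM, -1.74 ± 0.09). The number lower was 6 without CG4 replicate 2.

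The promoters of 5 of these genes are shown because mitosis genes are known to share promoter elements. Each runs 5′ to 3′ on the gene's strand, from 250 bases before the start to 50 after it, from RefSeq on the build GRCr8. Capitals mark the core of the cell cycle genes homology region, read as TTTGAA or, on the opposite strand, as TTCAAA. They also mark the CCAAT box, which on the opposite strand reads ATTGG, and no marked motifs overlap. The first 3 have the smallest adjusted p of the mitosis list, Top2a is a further member, and Pola1 is the replication gene with the smallest adjusted p among those higher. They lie at chr3:138859923-138860222 (plus strand), chr2:33655176-33655475, chr6:31431503-31431802, chr10:84473044-84473343 and chrX:62342306-62342605 (all minus strand).
Cdc25b: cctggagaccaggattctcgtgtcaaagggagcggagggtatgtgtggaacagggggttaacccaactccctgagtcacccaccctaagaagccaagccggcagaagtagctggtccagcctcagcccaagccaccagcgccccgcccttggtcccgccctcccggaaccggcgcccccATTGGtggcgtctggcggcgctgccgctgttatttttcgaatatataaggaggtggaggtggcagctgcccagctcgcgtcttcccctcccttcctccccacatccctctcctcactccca
Ccnb1: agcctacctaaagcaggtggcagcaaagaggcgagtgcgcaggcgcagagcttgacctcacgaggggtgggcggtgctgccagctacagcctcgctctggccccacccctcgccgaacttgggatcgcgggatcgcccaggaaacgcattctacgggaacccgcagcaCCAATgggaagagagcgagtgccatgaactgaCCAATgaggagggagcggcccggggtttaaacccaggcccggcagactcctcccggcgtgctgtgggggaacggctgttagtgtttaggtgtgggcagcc
Cenpa: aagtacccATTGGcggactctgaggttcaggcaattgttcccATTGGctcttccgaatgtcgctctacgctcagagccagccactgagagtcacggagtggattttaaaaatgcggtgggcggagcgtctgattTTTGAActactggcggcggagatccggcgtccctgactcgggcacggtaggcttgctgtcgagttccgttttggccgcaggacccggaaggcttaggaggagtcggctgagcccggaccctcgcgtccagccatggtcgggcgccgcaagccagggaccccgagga
Top2a: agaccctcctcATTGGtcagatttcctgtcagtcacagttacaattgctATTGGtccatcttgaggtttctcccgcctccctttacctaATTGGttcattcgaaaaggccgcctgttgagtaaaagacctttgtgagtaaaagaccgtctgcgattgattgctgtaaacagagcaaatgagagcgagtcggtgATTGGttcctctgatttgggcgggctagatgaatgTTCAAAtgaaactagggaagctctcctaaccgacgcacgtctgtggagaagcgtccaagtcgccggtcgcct
Pola1: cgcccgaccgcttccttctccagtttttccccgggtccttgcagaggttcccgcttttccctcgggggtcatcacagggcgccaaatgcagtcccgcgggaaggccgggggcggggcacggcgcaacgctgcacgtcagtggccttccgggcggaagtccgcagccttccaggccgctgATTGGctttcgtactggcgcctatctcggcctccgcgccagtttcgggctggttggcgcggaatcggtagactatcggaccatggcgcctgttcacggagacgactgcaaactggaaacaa
Cenpa and Top2a hold the homology region core and all 5 hold a CCAAT box, while Cdc25b and Ccnb1 hold no exact match to the core. Promoters were found for 30 of 35 tested mitosis genes and 32 of 36 replication genes. The core is present in 22 of the 30 (73.3%), in 1 of the 32 (3.12%) and in 18.3% of all 33469 promoters in the table. A CCAAT box is present in 24 of the 30 (80.0%), in 19 of the 32 (59.4%) and in 37.5% of all. The list shares take 1 promoter per gene, and the share of all takes every promoter in the table. These shares describe list membership and not the levels in CG4. The part of the motifs in the differences was not tested. A match is a description of these letters and not a site.

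**Figure D4:**
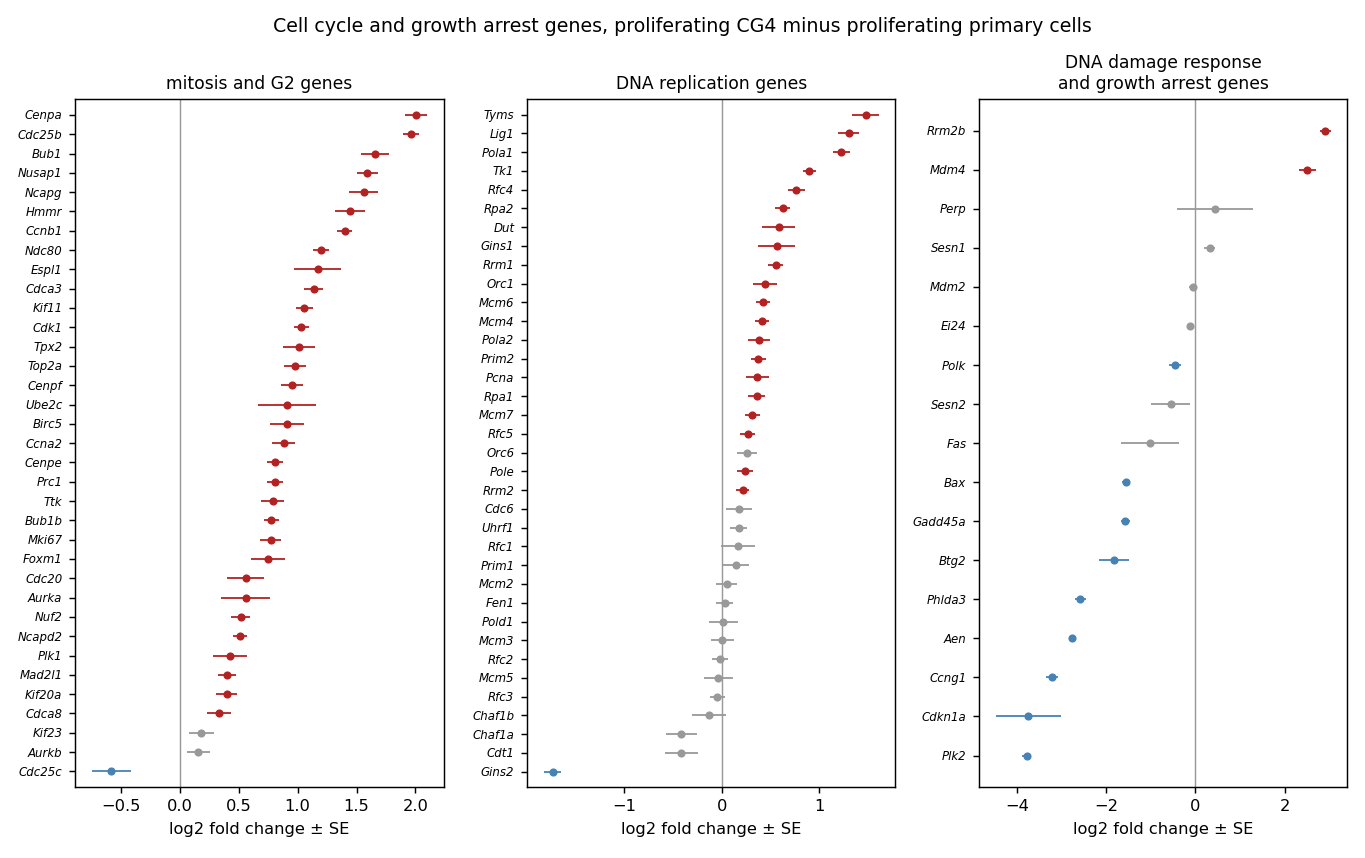
Log2 fold change, proliferating CG4 minus proliferating primary cells (x axis, bars are SE), of every tested member of 3 lists, red where higher, blue where lower and grey where not called by edgeR. Nearly all mitosis genes lie to the right of 0, replication genes lie closer to 0, and most called genes of the damage response and growth arrest list lie to the left.

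Regulators of G1 entry differed in both directions, with 9 of 23 higher, 4 lower and a median of 0.17 (0.30 without CG4 replicate 3). E2f1, a further member, was set aside. On plain library totals it stood at 0.709, 1.73 and 0.918 CPM in CG4 and 72.0 to 73.0 CPM in primary cells. Ccnd1, cyclin D1, stood at 652, 1591 and 825 CPM in CG4 and 2701, 2863, 2791 and 2819 CPM in primary cells (-1.45 ± 0.29, adjusted p = 0.00305). Its partner kinase gene Cdk4 was higher (755 to 916 against 353 to 375 CPM, 1.18 ± 0.08), as were Cdk2 (0.64 ± 0.07) and the retinoblastoma gene Rb1 (0.70 ± 0.08). Of the kinase inhibitors, Cdkn2b was lower (15.6, 15.7 and 12.8 against 134, 138, 134 and 130.2 CPM, -3.19 ± 0.10, adjusted p = 5.02e-07) and Cdkn2c higher (43.4 to 62.4 against 26.7 to 29.8 CPM, 0.97 ± 0.13). Mycn was lower (4.52 to 5.74 against 26.4 to 28.8 CPM, -2.36 ± 0.13). Myc was called higher (429, 158 and 354 against 159, 145, 152 and 156 CPM, 1.04 ± 0.29), but CG4 replicate 2 lies within the primary range, and the call ended without CG4 replicate 3 (adjusted p = 0.0510).

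Genes that respond to DNA damage and hold growth back were mostly lower in CG4. Of 17 tested members of that list 9 were lower and 2 higher, with a median of -1.01. Without CG4 replicate 2 the median was -0.52 and 3 were higher. Plk2 (ENSRNOG00000011951), a stress kinase, stood at 43.2, 33.4 and 37.6 CPM in CG4 and at 519.7, 529.7, 527 and 531 CPM in primary cells (-3.79 ± 0.11, adjusted p = 3.62e-07). The groups are separated by a wide gap. Cdkn1a, the p21 inhibitor, varied among the CG4 libraries but was below the primary range in each (55.5, 11.3 and 6.74 against 324, 329, 339 and 329.5 CPM, -3.75 ± 0.73). Ccng1 (45.4 to 63.5 against 467 to 517 CPM), the nuclease gene Aen (22.6 to 25.2 against 161 to 168 CPM), Phlda3 (12 to 17.0 against 81.0 to 91.6 CPM) and the cell death gene Bax (66.6 to 81.2 against 208 to 226 CPM) were lower. The members that were higher were Mdm4 (127 to 220.2 against 24.8 to 32.7 CPM, 2.51 ± 0.19), and Rrm2b, a ribonucleotide reductase subunit (35.9 to 43.9 against 4.76 to 5.81 CPM, 2.91 ± 0.12).

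Growth factor receptor and ligand genes were higher in 17 of 33 and lower in 9, with a median of 0.59 (0.96 without CG4 replicate 2). Besides Pdgfra, already described, the FGF receptors moved in opposite directions. Fgfr1 stood at 120.4, 181 and 199 CPM in CG4 and 613, 586, 609 and 619 CPM in primary cells (-1.87 ± 0.17, adjusted p = 5.48e-05). Fgfr3 stood at 68.6, 57.4 and 104 against 11.1, 11.9, 11.2 and 10.8 CPM (2.77 ± 0.20, adjusted p = 1.82e-05), and neither gene overlapped between groups. The neuregulin receptor genes Erbb2 (22.9 to 51.1 against 2.38 to 2.93 CPM, 3.78 ± 0.28) and Erbb3 (350.5 to 605 against 189 to 195 CPM, 1.38 ± 0.17) were higher, as were the neurotrophin receptor genes Ntrk2 (304 to 797 against 203 to 217 CPM) and Ntrk3 (98.3 to 121 against 12.8 to 14.2 CPM), Kit (2.06 ± 0.20) and Il6st (1.27 ± 0.10). Ligands and binding proteins were among the members lower. Igfbp3, which binds IGF, stood at 22.3, 33.2 and 26.7 against 718, 728, 759 and 741 CPM (-4.75 ± 0.16, adjusted p = 6.4e-07), and Igfbp2 at 0.754 to 1.38 against 49.9 to 57.6 CPM. Tgfb1 (0.664 to 2.30 against 99 to 105 CPM), Fgf2 (0.0328 to 0.199 against 5.36 to 6.74 CPM) and Pdgfb (0.0511 to 0.323 against 2.97 to 3.54 CPM) were lower.

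Genes that ERK signalling switches on, many of them feedback inhibitors, were lower in 14 of 21 and higher in 2, with a median of -1.45 (-2.29 without CG4 replicate 2). Without CG4 replicate 1 the higher count was 4, and without CG4 replicate 3 it was 1. Dusp6 (ENSRNOG00000023896), the ERK phosphatase, stood at 110.1, 262 and 64.7 CPM in CG4 and 574, 571, 580.5 and 581 CPM in primary cells (-1.99 ± 0.44, adjusted p = 0.00488). Dusp4 (17.9 to 50.5 against 272 to 283 CPM), Dusp5 (1.30 to 2.49 against 14.8 to 17.3 CPM), Spry2 (58.9 to 98.7 against 278 to 300.2 CPM), Phlda1 (130.1 to 224 against 884 to 957 CPM) and Ier3 (2.66 to 6.13 against 36.1 to 38.5 CPM) were lower too. Fosl1, an AP-1 factor, was nearly lost (0.0511 to 0.124 against 25.1 to 28.1 CPM, -8.28 ± 0.25). Il17rd, an inhibitor of FGF signals, was higher (21.8 to 55.8 against 1.84 to 2.32 CPM, 3.93 ± 0.37).

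Other signalling pathways did not move as blocks. Of 27 Wnt genes 11 were higher and 7 lower (median 0.38, or 0.61 without CG4 replicate 1). The receptor genes Kremen1 (91.2 to 122 against 10.8 to 12.1 CPM, 3.17 ± 0.12) and Lgr5 (6.79 to 27.1 against 1.34 to 1.64 CPM, 3.49 ± 0.44) and the repressor gene Tcf7l1 (47.4 to 184 against 7.71 to 8.48 CPM, 3.63 ± 0.44) were higher. The ligand Wnt5a was lower (0.0993 to 2.59 against 12.6 to 13.8 CPM, -3.19 ± 0.77), and Dkk3 had 1 count in CG4 and a ratio of 644 (95% interval 116 to 25450.0) toward primary cells. Of 18 Notch genes 5 were higher and 10 lower (median -0.83). The ligands Dll1 (1.45 ± 0.30) and Jag1 (1.18 ± 0.19) were higher, and the receptor Notch2 (-1.01 ± 0.23) and the modifier Lfng (3.38 to 14.8 against 55.5 to 61.3 CPM, -2.68 ± 0.44) lower. Of 21 BMP and Id genes 4 were higher and 7 lower. Their median was -0.09, and leaving out 1 library moved it between -0.04 (primary replicate 3) and -0.38 (CG4 replicate 3), with -0.24 without primary replicate 1, -0.15 without primary replicate 2 and -0.19 without CG4 replicate 1. The ligand Bmp7 stood at 89.2, 250.1 and 131 against 6.62, 6.09, 7.49 and 6.56 CPM (4.55 ± 0.35, adjusted p = 2.42e-05), while the target genes Id1 (2.5 to 5.34 against 12.6 to 15.1 CPM, -1.96 ± 0.29) and Id3 (11.4 to 22.8 against 36.8 to 38.2 CPM, -1.05 ± 0.22) and the inhibitor Smad7 (-1.37 ± 0.18) were lower. Of 10 hedgehog genes 4 were higher and 4 lower, and 2 were higher without primary replicate 1 or 4. Their median was 0.31, but 0.16 without CG4 replicate 1, 0.0089 without CG4 replicate 2 and -0.03 without a filter on low counts. The signal transducers Smo (8.59 to 12.6 against 25.5 to 27.1 CPM, -1.38 ± 0.15) and Gli2 (0.255 to 0.397 against 1.71 to 2.28 CPM, -2.53 ± 0.26) were lower, and their inhibitor Sufu was higher (1.36 ± 0.27, or 0.90 without CG4 replicate 2).

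Matrix and adhesion genes moved both ways, with 27 of 62 higher, 22 lower and a median of 0.23 (0.37 without CG4 replicate 1 and 0.09 without CG4 replicate 2). Col9a3 (ENSRNOG00000009531) stood at 358, 633 and 301 CPM in CG4 and at 9.71, 9.57, 9.52 and 9.62 CPM in primary cells (5.49 ± 0.27, adjusted p = 3.5e-06). Col11a2 (153 to 367 against 16.8 to 18.3 CPM, 3.74 ± 0.29) and Col9a1 (27.3, 447 and 319.7 against 0.992 to 1.14 CPM, 7.94 ± 0.96) were higher with it, although Col9a1 was far lower in CG4 replicate 1 than in the others. The laminin genes Lama4 (1.98 ± 0.15) and Lamc1 (2.09 ± 0.18) and the integrin gene Itgav (1.27 ± 0.10) were higher. Tnc, tenascin C, went the other way, at 12.8, 4.66 and 16.8 against 1978, 1899, 1951 and 2043 CPM (-7.42 ± 0.49, adjusted p = 1.19e-05). The protease gene Mmp2 (0.0497 to 0.306 against 21.2 to 24.6 CPM) and the integrin genes Itga3 (1.80 to 4.26 against 52.1 to 61.5 CPM) and Itgb5 (15 to 20.8 against 71.4 to 80.4 CPM) were lower, and Col5a2 had no count in CG4 and was at least 444-fold lower. Fibroblast markers, given above, moved with these last genes, and their part was not tested.

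Of 11 secreted neuropeptide and granin genes 8 were lower and 0 higher by edgeR (0 also at an unadjusted p under 0.05 and 0 by DESeq2), with a median of -3.14. Without CG4 replicate 2, 1 was higher. Vgf (ENSRNOG00000001416), a growth-factor-induced secretory protein, stood at 11.0, 10.1 and 6.74 CPM in CG4 and at 794, 745, 828 and 780.0 CPM in primary cells (-6.41 ± 0.20, adjusted p = 5.78e-07). Scg2 (0.164 to 3.77 against 503 to 526 CPM), the processing enzyme Cpe (76.0 to 153 against 945 to 975 CPM), Calca (3.51 to 8.57 against 56.3 to 61.2 CPM) and Nxph1 (3.55 to 11.2 against 43.4 to 50.2 CPM) were lower too. Summed, the list stood at 151 to 258 CPM in CG4 and 2444 to 2527 CPM in primary cells.

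Of 34 ion channel genes 8 were higher and 12 lower. Their median was -0.08, but -0.17, -0.45 and -0.25 without CG4 replicate 1, 2 and 3, and 0.11 without a filter on low counts. Of 16 glutamate and GABA receptor genes 6 were higher and 7 lower (median -0.23, or -0.03 without CG4 replicate 1 and -0.53 without CG4 replicate 3). The AMPA receptor gene Gria4 (123, 143 and 137 against 35.3, 37.9, 34.2 and 37.4 CPM, 1.89 ± 0.08) and the kainate receptor gene Grik3 (172 to 445 against 67.3 to 76.1 CPM, 2.01 ± 0.29) were higher. Grin1, the obligate NMDA receptor subunit, was lower (0.397 to 1.41 against 20.8 to 23.6 CPM, -4.39 ± 0.42), as was the GABA-B receptor gene Gabbr1 (60.6 to 76.3 against 264 to 276 CPM, -1.98 ± 0.09). The sodium channel gene Scn1a was higher (16.7 to 24.6 against 0.694 to 1.32 CPM, 4.32 ± 0.27). The mechanosensitive channel Piezo1 (27.4 to 56.8 against 293 to 323 CPM, -2.87 ± 0.24) and the calcium channel gene Cacna1h (-2.53 ± 0.17) were lower. Of 40 axon guidance genes 10 were higher, or 16 without CG4 replicate 1, and 15 lower (median -0.30). Sema3d (198 to 273 against 42.4 to 52.6 CPM, 2.30 ± 0.12), Plxnb3 (1.35 ± 0.12), Ntn1 (0.97 ± 0.11) and Efna5 (9.48 to 14.4 against 0.149 to 0.305 CPM, 5.52 ± 0.27) were higher. Sema3c (2.43 to 7.03 against 77.7 to 89.2 CPM, -4.11 ± 0.34), its receptor gene Nrp2 (1.94 to 7.99 against 88.5 to 94.5 CPM, -4.52 ± 0.54) and Robo2 (0.124 to 0.492 against 27.3 to 29.4 CPM, -6.29 ± 0.39) were lower.

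Of 27 tested stress and unfolded protein response genes 11 were higher and 4 lower, or 8 lower without CG4 replicate 1. The median was 0.76, or 0.27 without that library. Phgdh, the first enzyme of serine synthesis, stood at 548, 405 and 441 CPM in CG4 and 129, 125, 127 and 121 CPM in primary cells (1.89 ± 0.11, adjusted p = 6.79e-06). Psat1 (371 to 886 against 132 to 144 CPM, 2.04 ± 0.28), Shmt2 (450.1 to 1129 against 255 to 264 CPM, 1.41 ± 0.31), Asns (109 to 485 against 43.7 to 47.6 CPM, 2.38 ± 0.50) and the regulator Atf4 (396 to 1054 against 219 to 226 CPM, 1.57 ± 0.30) followed, with their highest level in CG4 replicate 1. Without that library Asns differed by 1.35 and Shmt2 by 0.85, and both still passed. Vldlr (2.34 ± 0.16) and Ddit3 (1.2 ± 0.22) were higher too. The unfolded protein response genes Xbp1 (-0.63 ± 0.09) and Ppp1r15a (-0.74 ± 0.14) were lower.

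Of 22 glycolysis genes 11 were higher and 2 lower (median 0.63, or 0.21 without CG4 replicate 1), but 3 further members were set aside. Ldhb (245 to 269.7 against 94.4 to 101 CPM, 1.42 ± 0.07), Aldoc (113 to 253 against 34.5 to 37.6 CPM, 2.36 ± 0.24), Pdk3 (1.85 ± 0.16) and Pfkm (0.65 ± 0.08) were higher. The lower count was 0 without CG4 replicate 3 or any primary library, 1 without CG4 replicate 2 and 6 without CG4 replicate 1. Cholesterol genes were split, 6 of 20 higher and 6 lower (median -0.08, or -0.01 without CG4 replicate 1 and -0.02 without CG4 replicate 2). A further 2 members were set aside, and with them kept 6 of 22 were higher and 8 lower. Sqle, an enzyme of cholesterol synthesis, was higher (429 to 485 against 249.7 to 265 CPM, 0.82 ± 0.07). Of 29 fatty acid and sphingolipid genes 12 were higher and 6 lower (median 0.14, or 0.05 without CG4 replicate 1). Srebf1, the main regulator of fatty acid synthesis, stood at 0.720, 0.525 and 0.919 against 21.2, 20.4, 22.4 and 19 CPM (-4.83 ± 0.22, adjusted p = 2.41e-06), and its target Fasn was lower as well (896 to 959 against 1612 to 1760.0 CPM, -0.86 ± 0.07). Fads2 (1.12 ± 0.21) and Sptlc2 (1.29 ± 0.09), the latter an enzyme that starts sphingolipid synthesis, were higher.

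Chromatin regulators were higher in 14 of 34 and lower in 6, or 10 lower without CG4 replicate 2, with a median of 0.17. Tet1 (ENSRNOG00000000277), a 5-methylcytosine oxidase, stood at 101, 77.0 and 68.2 CPM in CG4 and at 9.06, 7.75, 7.09 and 8.06 CPM in primary cells (3.36 ± 0.16, adjusted p = 2.99e-06). Tet3 (1.41 ± 0.15), the methyltransferase gene Dnmt3b (2.10 ± 0.19), the polycomb gene Suz12 (173 to 235 against 70.8 to 76.1 CPM, 1.43 ± 0.11) and Igf2bp3, an RNA-binding protein of fetal tissues (1.05 ± 0.15), were higher. The architectural genes Hmga1 (265, 305 and 220.2 against 1186, 1018, 1163 and 1142 CPM, -2.10 ± 0.13) and Hmga2 (-1.26 ± 0.22) were lower. Hdac11 had 1 count in CG4 and a ratio toward primary cells of 304 (95% interval 54.6 to 12020.0). Of 19 imprinted genes 5 were higher (9 without CG4 replicate 1) and 4 lower (7 without CG4 replicate 2), with a median of 0.47. Without CG4 replicate 3, 4 were higher and 6 lower, and the median was -0.09. Dlk1 (0.590 to 10.9 against 429 to 486 CPM, -6.29 ± 0.82) and Nap1l5 (-1.51 ± 0.12) were lower, and Mest was higher (1.47 ± 0.18). Dio3, a neighbour of Dlk1, had 1 count in CG4 and a ratio toward primary cells of 1249 (95% interval 224 to 49330.0). Peg3 did not pass (0.21 ± 0.21, adjusted p = 0.395).

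The same contrast was then read in differentiating cells, 4 control CG4 against 4 primary libraries, all of 2x150 bases. Differentiating primary replicates 1 and 2 differed by a chi-square per degree of freedom of 8.47, and 3 and 4 by 1.77. Between these pairs it was 29.4 to 37.1. The SE and adjusted p treat the 4 as separate libraries, and whether the pairs share a preparation was not tested. The differentiating libraries entered no test above, but their levels helped to decide which genes were set aside. The genes compared between the states were thus not chosen independently of them. Of 12290 genes tested there, 4871 (39.6%) were higher and 4646 (37.8%) lower in CG4, with a median log2 difference of 0.02. Of 3998 genes higher in proliferating CG4 and tested in both states, 1762 (44.1%) were also higher in differentiating CG4 (38.0% of those higher there) and 1283 (32.1%) were lower there. Of 3756 lower in proliferating CG4, 1719 (45.8%) were also lower in differentiating CG4 (37.9% of those lower there) and 1231 (32.8%) were higher. The difference between the states was tested as an interaction over 15 libraries. Of 12933 genes tested, it was above 0 in 4569 (35.3%) and below 0 in 4350 (33.6%). Read length differs between the proliferating groups only, and the GFP vector is in differentiating control CG4 alone. Both therefore move with this term and cannot be told apart from the state.

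Some gaps were similar in both states. Hapln1 stood at 292 ± 60.5 CPM (SD, n = 4) in differentiating control CG4 and 0.633 ± 0.232 CPM in primary cells (8.80 ± 0.24), and its interaction did not pass (-0.30 ± 0.32, adjusted p = 0.416). Cspg4 was low in CG4 in both states, at 1.5 ± 0.366 against 96.9 ± 4.45 CPM here (-6.0 ± 0.15), though its interaction passed (0.83 ± 0.18). Col9a3 (2.41 ± 0.14) and En1 (2.33 ± 0.14) stayed higher in CG4 and Tnc (-2.31 ± 0.50) lower, each with a smaller difference than in proliferation.

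A few gaps of dividing cells were smaller in differentiating ones. Pdgfra stood at 364 ± 87.0 against 335 ± 6.79 CPM (0.12 ± 0.15, adjusted p = 0.478, interaction 1.37 ± 0.25), Top2a differed by -0.09 ± 0.09 (interaction 1.18 ± 0.14) and Mki67 by -0.21 ± 0.08 (interaction 1.09 ± 0.12). Mdm4 stood at 23.9 ± 4.86 against 29.3 ± 4.27 CPM (-0.29 ± 0.16, interaction 2.91 ± 0.27). Dusp6 (-0.02 ± 0.21, adjusted p = 0.942) and Tgfb1 (0.21 ± 0.18, adjusted p = 0.306) did not pass in differentiating cells, though Tgfb1 did without control CG4 replicate 3 (0.37, adjusted p = 0.0155). Csf1r and Apoe were lower in CG4 in both states. The macrophage receptor gene Csf1r was at 0.232 ± 0.0685 against 13.2 ± 1.69 CPM (-5.80 ± 0.21, interaction -6.62 ± 0.37), beside 392 to 405 CPM in dividing primary cells. Apoe was at 20.6 ± 2.99 against 501 ± 168 CPM (-4.60 ± 0.25, interaction -4.73 ± 0.34).

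A further group changed side. Mbp, higher in proliferating CG4, stood at 6216 ± 2097 CPM in differentiating control CG4 and 48148 ± 3715 CPM in primary cells (-2.95 ± 0.24, interaction 3.83 ± 0.34, adjusted p = 1.78e-07). Cnp (-1.99 ± 0.12), Itpr2 (-1.73 ± 0.17), Zfp488 (39.5 ± 10.6 against 168 ± 2.52 CPM, -2.09 ± 0.16), Rrm2b (-0.79 ± 0.15) and Tet1 (-0.89 ± 0.23) did the same. In differentiating CG4, 3 of 24 myelin genes were higher and 18 lower, with a median of -1.99. Nkx2-2 went the opposite way, at 252 ± 39.1 against 61.3 ± 26.4 CPM (2.04 ± 0.28, interaction -3.89 ± 0.48, adjusted p = 4.59e-06). Vim (2.13 ± 0.37), Plk2 (0.92 ± 0.18), Fgfr1 (0.66 ± 0.20), Igfbp3 (2.47 ± 0.41), Hmga1 (2.04 ± 0.12), B2m (1.22 ± 0.13) and Vgf (4.83 ± 0.59) were likewise lower in dividing and higher in differentiating CG4. Interferon and MHC class I genes were higher in 14 and lower in 5 of 26 in differentiating CG4. Microglia and macrophage markers were higher there in 2 and lower in 6 of 10.

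Large interaction terms among genes with a symbol lay in both directions. Toward proliferating CG4 they were those of Gjc3 (8.69 ± 0.74), Cxcl12 (8.36 ± 0.76), a chemokine, Ppp2r2c (7.47 ± 0.26), Rpe65 (7.18 ± 0.82) and Grin3a (6.78 ± 0.42). The terms furthest below 0 were those of AABR07065531.3 (-16.52 ± 1.30), Il16 (-13.05 ± 0.77), the complement gene C2 (-12.59 ± 0.39), Ugt1a7c (-11.95 ± 0.45), Slc18a2 (-11.71 ± 0.37) and Ch25h (-11.52 ± 0.53). AABR07065531.3, for example, stood at 0.124, 0 and 0.460 against 68.0 to 72.9 CPM in dividing cells and at 36.0 ± 28.2 against 0.111 ± 0.0886 CPM in differentiating ones. Where a gene has few or no counts in a group, as Il16 (2 counts), Ugt1a7c, Slc18a2 and Ch25h in dividing CG4, the fitted term depends on the prior count and is no bound.

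**Figure D5:**
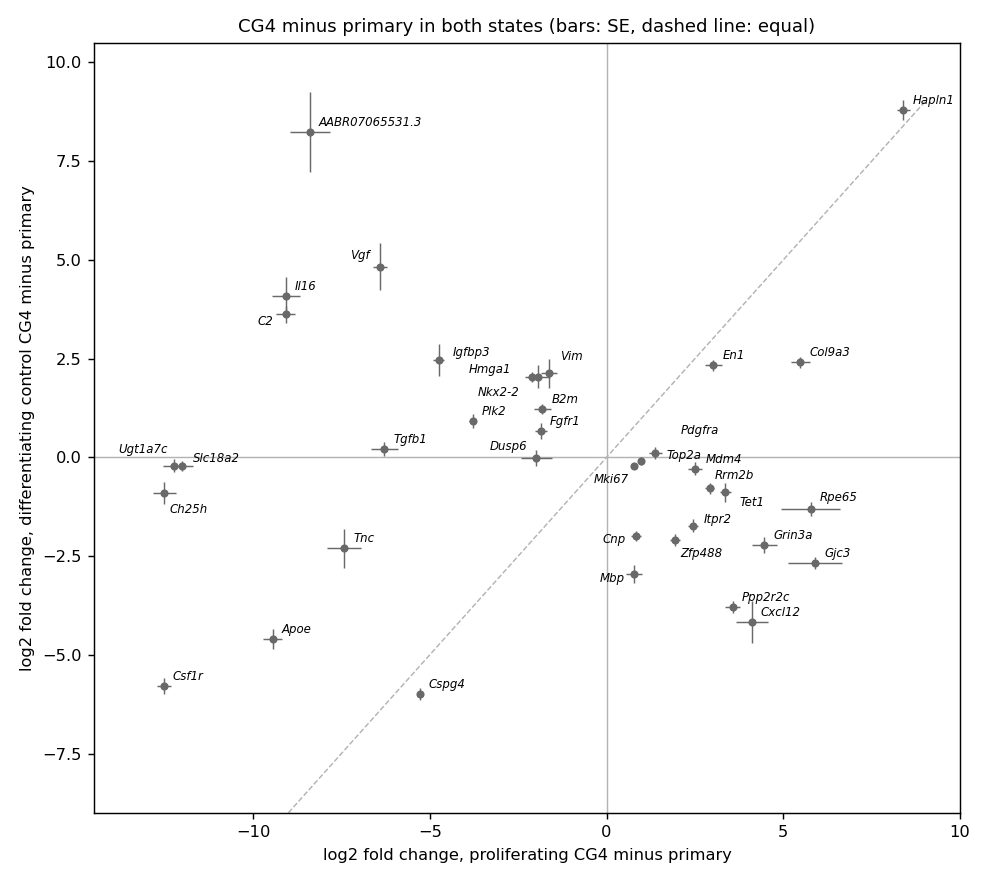
Log2 fold change, CG4 minus primary, in proliferating cells (x axis) and in differentiating cells with control CG4 (y axis) for the 38 genes described in both states, bars are SE. Points on the dashed line have equal differences, as Hapln1 nearly has, and points in the upper left or lower right change side, as Vgf, Nkx2-2, Mbp and Gjc3 do.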

How the data were processed

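RNA was extracted with the RNeasy Mini Kit, per the labels' protocols. The files hold counts of reads per gene, deposited by the authors. Per the submitters' processing notes, Trimmomatic 0.36, STAR 2.5.2b, featureCounts from Subread 1.5.2 and the rat build rn6 were used, and DESeq2 and edgeR are also named. Whether counting used strand is not stated in these notes, so a gene that overlaps another, lies opposite one or has a close copy carries an uncertain count. The control CG4 files list more genes than the others, and genes listed in all files (15219) were joined by identifier. Symbols were taken from the authors' results for differentiating CG4 with added Zfp488 or Nkx2.2, and 12411 genes have one. Genes not named there entered no list and no ranking of genes with a symbol. Many list symbols were not found, among them 39 of 62 positional and 19 of 30 neuropeptide and granin ones. The same holds for 15 of 26 microglia and 10 of 22 fibroblast, pericyte and endothelial symbols. In R 4.3.3, edgeR 4.0.16 (TMM, filterByExpr, quasi-likelihood fit on the 7 libraries) gave the tests, limma 3.58.1 and DESeq2 1.42.0 alternatives. Alternatives were other scalings, filters, set-aside thresholds, thinned counts, 15 libraries in 1 fit, a replicate block and each library left out. The limma fit with a weight per group and the promoter motifs were added after seeing the data. On simulated counts for 12373 genes with 200 changed, the fit for the proliferating comparison recovered 79% of changes of log2 1 and 96% of log2 2, with 4 unchanged genes called. The simulation gave both groups the same spread and changed few genes, unlike the data. It therefore cannot show how the fit fares with the wider spread of CG4 or with most genes changed.

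The members and all 34 lists (981 symbols) were chosen with earlier results of these data known. Named genes are a panel of lineage and growth genes, the 12 largest differences in each direction with non-overlapping groups, and for each list up to 6 members with the smallest adjusted p in each direction and the 4 most abundant, from which the text takes examples. They also include the most abundant set-aside genes and the 6 largest interactions in each direction. No member of the list of 13 mitochondrial genes was found in the files. Intervals and floors cover counting error only. Some genes were left out of the lists and are not reported here. No genome was given, so genes are named by identifier, and coordinates are given only for the 5 promoters, from the RefSeq table on GRCr8.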

Additional observations from a re-analysis of the deposited data

Results flagged for a closer look

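In groups of 4 libraries, 1 library stood apart from the other three in 18 of 314 groups tested, by Dixon's criterion at the 95% level. Chance flags about 5% of such groups. Among primary proliferating libraries, replicate 3 stood apart for Mbp (296 CPM), Dll3 (18.3 CPM), Six3 (9.37 CPM), Mycn (28.8 CPM), Ppp1r15a (38.1 CPM) and Vwf (1.79 CPM). Replicate 2 stood apart for Hapln1 (1.78 CPM), Erbb2 (2.93 CPM), Xbp1 (128 CPM) and Dlk1 (429 CPM). Replicate 1 did so for C2 (34.6 CPM), Fads2 (186 CPM) and Dmrt2 (0.0381 CPM), and replicate 4 for Hmx3 (0.0300 CPM). The last pair are single counts. In differentiating control CG4, replicate 3 stood apart for Tgfb1 (4.23 CPM) and En1 (5.68 CPM), and replicate 4 for Itpr2 (86.5 CPM) and Mdm4 (16.6 CPM).

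For 37 of the 38 genes described in both states, the difference between CG4 and primary cells in proliferation differed from that in differentiation by the interaction test of edgeR. The exception was Hapln1. These genes include the ones named for the largest interactions, and over all 12933 genes tested the term was above 0 in 35.3% and below 0 in 33.6%. Values are log2, the proliferating difference minus the differentiating one. Lineage genes with a term above 0 were Pdgfra (1.37), Cspg4 (0.83), Zfp488 (4.13), Itpr2 (4.28), Mbp (3.83), Cnp (2.94) and Gjc3 (8.69), while that of Nkx2-2 was -3.89. Growth and cell cycle genes gave 1.09 for Mki67, 1.18 for Top2a, 2.91 for Mdm4, 3.81 for Rrm2b, -4.60 for Plk2, -2.42 for Fgfr1, -7.11 for Igfbp3, -6.39 for Tgfb1 and -1.86 for Dusp6. Genes of the matrix, of patterning and of chromatin gave 3.18 for Col9a3, -5.01 for Tnc, 0.80 for En1, 4.36 for Tet1, -4.03 for Hmga1 and -3.64 for Vim. Genes that macrophages or astrocytes also express gave -2.93 for B2m, -4.73 for Apoe and -6.62 for Csf1r. Of the other genes, Cxcl12 (8.36), Ppp2r2c (7.47), Rpe65 (7.18) and Grin3a (6.78) lay above 0. Vgf (-11.13), AABR07065531.3 (-16.52), Il16 (-13.05), C2 (-12.59), Ugt1a7c (-11.95), Slc18a2 (-11.71) and Ch25h (-11.52) lay below. Read length and the set-aside rule bear on the proliferating CG4 libraries alone, and the GFP vector on the differentiating CG4 libraries alone. The part of each in these values was not tested.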

How the results depend on the processing

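The number of genes past the threshold was 8172. It was 8123 with RLE size factors, 8623 without a filter, 8865 by DESeq2, 8449 with the set-aside genes kept, 7949 with a threshold of 4-fold, 7950 with thinned counts, 9126 with 15 libraries in 1 fit and 7351 by limma with group weights. Leaving out 1 library gave 7130 to 9221. Same-numbered libraries did not deviate together (r of -0.0906, -0.148 and -0.041), though so few libraries cannot settle whether the numbers pair them. With the replicate block, without primary replicate 4, 6044 genes passed. Of 237 called genes in the text 231 kept their call in every setting that gave a value. With the replicate block Olig1 (adjusted p = 0.0927), Olig2 (0.0948) and Sox10 (0.107) missed. Among list counts of 10 or more, the block without primary replicate 4 took DNA replication genes higher in CG4 from 20 to 10, fatty acid genes from 12 to 7, glycolysis genes from 11 to 7 and chromatin genes from 14 to 9. Leaving out primary replicate 4 with no block gave 15, 10, 9 and 11. In the other settings, list medians that changed sign were those of myelin genes (-0.06 with set-aside genes kept), hedgehog genes (-0.03 without a filter, -0.07 by DESeq2, -0.0041 by limma), ion channels (0.11 without a filter, 0.07 by DESeq2, 0.04 with thinned counts, 0.19 with 15 libraries) and cholesterol genes (0.02 with 15 libraries). The median of OPC markers was 0.70 with that block and 0.69 by limma. Signs turned for 2 genes that had not passed. In the proliferating comparison it was Peg3 without CG4 replicate 3 (-0.12, over a range of -0.12 to 0.38 with 1 library left out). In differentiating cells it was Dusp6 without control CG4 replicate 3 (0.13) or 4 (0.09), over a range of -0.26 to 0.13. With a set-aside threshold of 4-fold, 20 of the 239 genes of the text left the test, among them Sox6, Nes, Apoe, Gfap, Phlda3, Mdm4, Rrm2b, Srebf1 and Enpp6. Of the tested genes 211 had no count in 1 group, and no list median moved when these were put at their bound. Limits remain that no setting removes. CG4 is 1 line, its libraries were read at another length, and bulk RNA does not separate cell types.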
